A study of Mus musculus with 2 samples.

Results

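The S100 genes encode small EF-hand calcium-binding proteins that act as dimers. The 8 members described here are S100a1, S100a4, S100a6, S100a8, S100a9, S100a10, S100a11 and S100a13, found by their symbols among the 27998 genes of the count tables. All 8 had reads in both libraries. They are described over leukocytes of subcutaneous Lewis lung carcinoma (LLC) tumors, LLC being a mouse lung carcinoma cell line, on day 14 after implantation. Cells sorted for CD45, a surface protein of leukocytes, came from C57/BL6 mice aged 10 weeks, and both genotypes carried loxP-flanked miR-21 alleles (mir-21flox/flox). The conditional knockout (cko) also carried LysMCre, a Cre recombinase expressed from the lysozyme M locus, which is active in macrophages, monocytes and granulocytes and not in lymphocytes. Each genotype gave 1 droplet library, a pool of 3 mice, so that there were 2 libraries and no replicate of a genotype. The titles (wt and cko) and the labels of the cell source give opposite genotypes. Values are therefore given for the library labelled wt and then for that labelled cko, in this order where a sentence does not say so.

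S100A8 and S100A9 form the heterodimer calprotectin, which is abundant in the cytosol of neutrophils, binds zinc and manganese, and is released as an alarmin that can signal through the receptors TLR4 and RAGE. S100A4 binds nonmuscle myosin and is linked to cell motility. S100A10 is the partner of annexin A2, with which it forms a complex at the plasma membrane, and S100A11 binds annexin A1. S100A6 binds the ubiquitin ligase component CacyBP. S100A13 takes part in the release of FGF1 and interleukin-1 alpha, which lack a signal peptide, and S100A1 is best known from heart muscle.

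The deposited tables covered 2449 cells labelled wt and 2718 labelled cko, and 2397 and 2646 of them passed the filters. Unique molecular identifiers (UMIs) count distinct RNA molecules, and the median cell had 8359 and 8247 of them. Classes were gated by UMIs of marker genes, none of them an S100 gene, and the gates were set after the marker values had been seen. Listed markers at least 2-fold higher in their class than in the remaining cells of both libraries numbered 13 of 13 in granulocytes, 8 of 8 in classical monocytes, 9 of 10 in C1q macrophages and 7 of 9 in other T cells. They numbered 6 of 10 in other dendritic cells (DCs), 5 of 10 in Xcr1/Clec9a DCs and 6 of 10 in Ccr7/Fscn1 DCs, with 2 and 3 markers at 0 in the last 2 classes. The gates used many of these markers, so that the counts describe the classes and are no independent check of their names. Lyz2, the gene at the locus that carries LysMCre, was lower in the library labelled cko in granulocytes (2487 against 10120 counts per 1000000 UMIs of the class, CPM), classical monocytes (12510 against 24780) and C1q macrophages (7176 against 15940), the direction that the titles give. The libraries shared 5 cell barcodes. With 1 library per genotype no test between genotypes was possible, every interval covers counting error alone, and both library values stand in place of a spread.

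All 8 genes lie on chromosome 3 of GRCm38 (mm10). S100a1 (90511034 to 90514392, minus strand) and S100a13 (90514435 to 90524581, plus strand) are neighbours with opposite orientation, 42 bp apart. S100a4 (90603771 to 90606045) and S100a6 (90612882 to 90624181) follow on the plus strand with 6.84 kb between them. S100a8 (90668978 to 90670035, plus strand) and S100a9 (90692632 to 90695721, minus strand) are separated by 22.6 kb. These 6 genes span 184.7 kb, whereas S100a11 (93520488 to 93526287) and S100a10 (93555080 to 93564643) lie apart from them, both on the plus strand. The count table and the GENCODE vM21 annotation gave the same gene identifier for all 8.

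RefSeq promoter windows (GRCm38.p6, 250 bases before to 50 bases after the annotated start) were found for 7 members, all except S100a10. They are shown for S100a8 and S100a9, which were expressed together in granulocytes, and for S100a4, whose expression had a different distribution. Capitals mark matches, on either strand, to a PU.1 motif with the letters GAGGAAGT, to a C/EBP motif with the letters TTGCNNAA, or to the letters TATAAA of the TATA box, and no matches overlapped. The windows are chr3:90668821-90669120 (plus strand), chr3:90695672-90695971 (minus strand) and chr3:90603520-90603819 (plus strand).
S100a8: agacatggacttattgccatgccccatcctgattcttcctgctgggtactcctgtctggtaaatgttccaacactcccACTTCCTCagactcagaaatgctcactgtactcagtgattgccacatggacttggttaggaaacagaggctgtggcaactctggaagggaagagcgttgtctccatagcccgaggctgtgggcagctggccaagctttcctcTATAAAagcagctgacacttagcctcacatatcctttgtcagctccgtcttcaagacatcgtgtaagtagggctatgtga
S100a9: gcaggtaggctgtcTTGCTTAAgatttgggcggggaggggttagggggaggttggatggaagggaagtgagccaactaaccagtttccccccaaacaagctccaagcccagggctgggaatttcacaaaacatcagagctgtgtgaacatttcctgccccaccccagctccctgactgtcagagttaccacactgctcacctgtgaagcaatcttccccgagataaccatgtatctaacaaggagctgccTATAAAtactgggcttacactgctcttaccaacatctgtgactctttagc
S100a4: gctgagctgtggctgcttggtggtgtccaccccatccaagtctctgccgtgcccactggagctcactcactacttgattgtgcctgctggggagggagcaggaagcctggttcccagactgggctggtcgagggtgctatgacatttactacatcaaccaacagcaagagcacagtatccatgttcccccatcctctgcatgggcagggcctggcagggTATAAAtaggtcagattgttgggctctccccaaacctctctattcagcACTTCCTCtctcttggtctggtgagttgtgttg

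TATAAA was present in the windows of S100a4, S100a8 and S100a9, and in 13.6% of all 32851 promoter windows of the table. It began 31 and 30 bases before the annotated start in S100a4 and S100a8, and at the start itself in S100a9, which is not the usual place of a TATA box. GAGGAAGT was present in those of S100a4 and S100a8 and in 3.2% of all windows. TTGCNNAA was found only in the window of S100a9 among the 7, and in 10.8% of all windows. The stricter C/EBP letters TTGCGCAA were in 0 of the 7 windows and in 0.183% of all windows. The STAT letters TTCNNNGAA were also in 0 of the 7, and in 8.3% of all windows. The windows of S100a1 and S100a13 shared 204 bases, and none of the letters searched occurred in them or in those of S100a6 and S100a11. These matches describe letters and not bound sites.

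S100a8 and S100a9 were concentrated in granulocytes, in which they made up 18.4% of UMIs in the library labelled wt and 26.0% in the library labelled cko. S100a8 reached 115100 CPM (95% interval 112900 to 117400) in the 20 granulocytes labelled wt and 161700 CPM (160000 to 163400) in the 54 labelled cko. S100a9 reached 69210 CPM and 98140 CPM. The other 6 members together took 1.38% and 1.71% of granulocyte UMIs. Because a UMI stands for 1 molecule captured at its 3′ end, CPM were not divided by transcript length.

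A further 8 and 19 cells passed the granulocyte gate but also held monocyte or macrophage markers, and were kept as a class of their own (granulocyte plus monocyte). Their S100a8 level was 28590 CPM labelled wt and 20620 CPM labelled cko, and their S100a9 level 20330 and 14400 CPM. Both lay between granulocytes and monocytes in both libraries. S100a8 and S100a9 were compared across cells of 1 library as shares of each cell's UMIs. Spearman's rho was 0.95 and 0.93 in these cells, 0.52 and 0.64 in granulocytes and 0.13 and 0.15 in classical monocytes, whose counts were low. Pearson's r of the same shares was 0.96 and 0.88, 0.69 and 0.76, and 0.95 and 0.89.

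**Figure D1:**
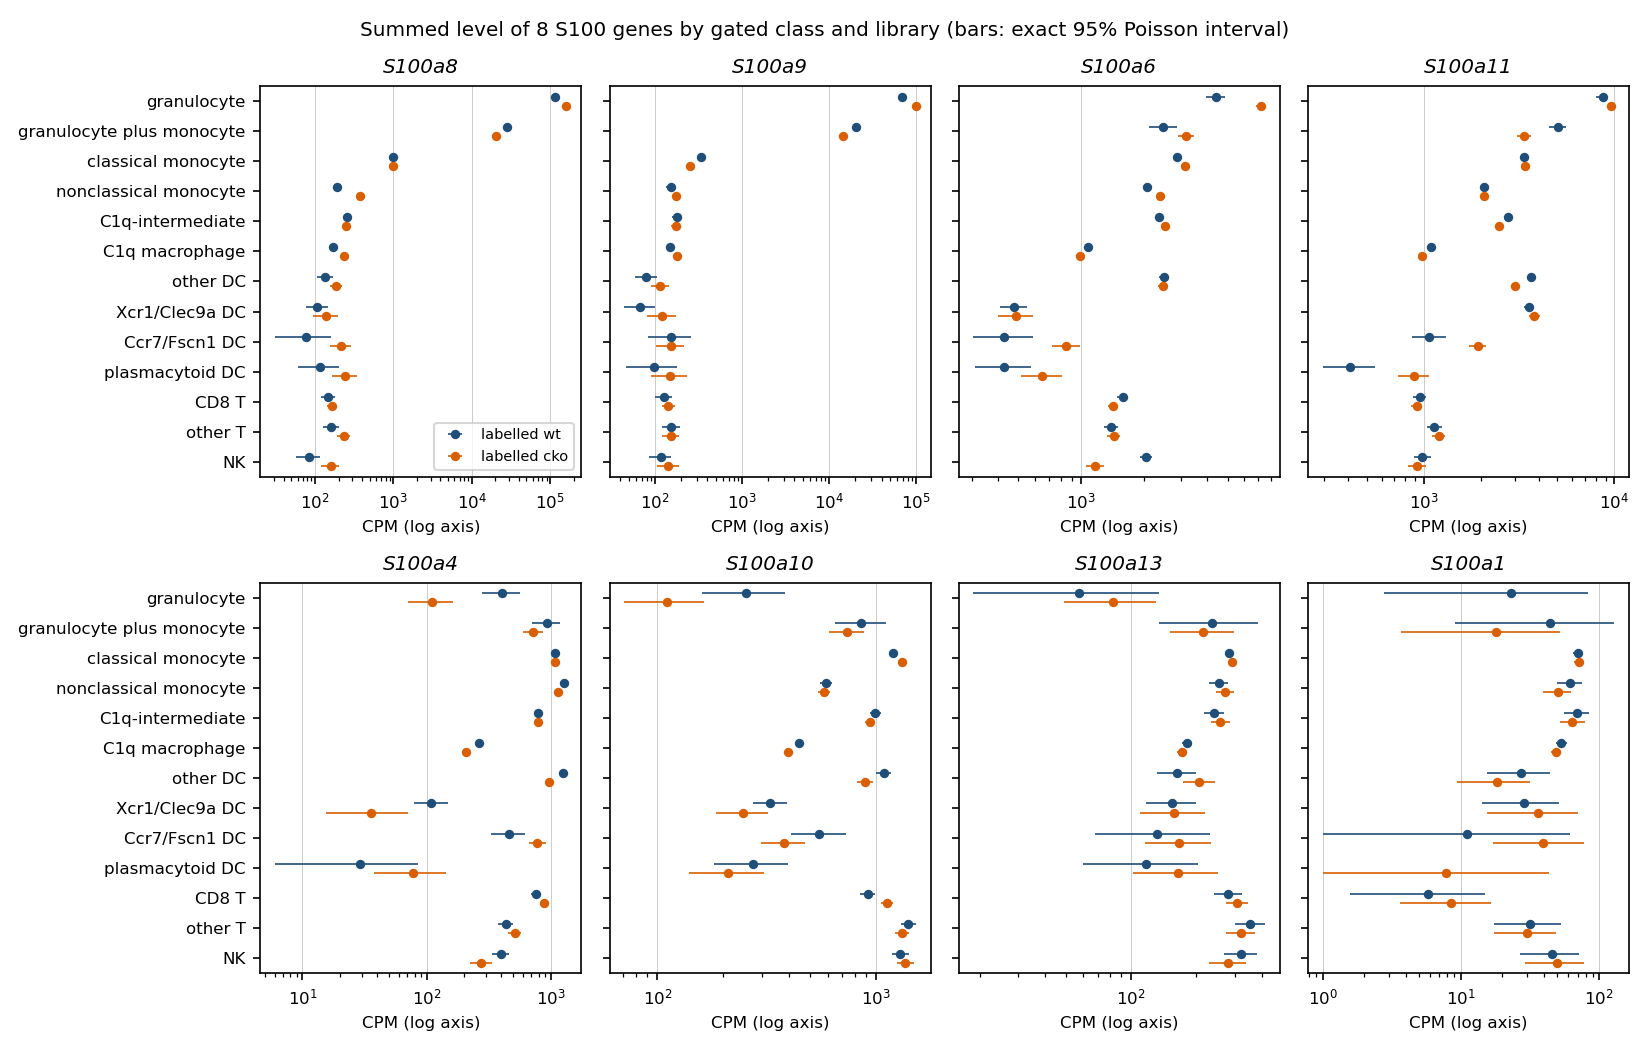
Level of each S100 gene in 13 gated classes, in CPM on a log axis that differs between panels, with 1 point per library (dark blue, labelled wt, and orange, labelled cko) and exact 95% Poisson intervals, whose lower ends are cut at 1 CPM; classes without a UMI are not drawn. S100a8 and S100a9 were highest in granulocytes in both libraries, S100a13 was lowest there in both, with 57.7 and 82.6 CPM.

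The other granulocyte-rich members were S100a11 and S100a6. S100a11 was 8655 CPM labelled wt and 9576 CPM labelled cko, and S100a6 was 4374 and 7181 CPM. S100a4, S100a10, S100a13 and S100a1 were low in the same cells. S100a4 had 404 and 110 CPM, S100a10 had 254 and 110 CPM, and S100a13 had 57.7 and 82.6 CPM. S100a1 had 2 UMIs in granulocytes labelled wt and 0 in those labelled cko.

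Against classical monocytes, 3 of the 8 members were at least 2-fold higher in granulocytes of both libraries (S100a8, S100a9 and S100a11), beside 4.58% of the 5542 genes with at least 100 UMIs, and 4 were at least 2-fold lower (S100a1, S100a4, S100a10 and S100a13), beside 26.9%. S100a8 was 116-fold higher labelled wt and 162-fold labelled cko, and S100a9 was 206-fold and 392-fold higher. S100a11 was 2.59-fold and 2.81-fold higher. The S100a1 call rests on 2 and 0 UMIs in granulocytes, the 0 being set to 3 counts. Its interval in granulocytes labelled wt (2.795 to 83.37 CPM) covered the 70.46 CPM of classical monocytes. S100a10 was 254 and 110 CPM in granulocytes against 1188 and 1311 CPM, and 33.6 and 53.0 CPM without the cells rich in Cd74 described next. S100a6 passed the 2-fold limit in the library labelled cko alone (1.52-fold and 2.3-fold). The median log2 ratio was -0.55 over the 8 members and -0.83 over all genes tested. With cells of at least 5000 UMIs the count of lower members was 0 in place of 4. Granulocytes were shallow, with medians of 3380 and 3712 UMIs per cell, and this limit removes most of them.

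The sums of S100a8 and S100a9 in granulocytes labelled wt were lowered by 3 of the 20 cells. These 3 cells held at least 20 UMIs of Cd74, the MHC class II invariant chain, per 10000 UMIs, a median of 7828 UMIs and 10020 CPM of S100a8, whereas the other 17 cells had 163100 CPM. In the library labelled cko, 1 of 54 cells held Cd74 at this level, with 2847 CPM of S100a8, and the other 53 had 169400 CPM. Without these 4 cells, a choice made after seeing the data, S100a9 was 94500 and 102700 CPM, S100a11 was 10590 and 9834 CPM, and S100a4 and S100a10 lay between 33.6 and 84.0 CPM in both libraries. Whether these cells were doublets was not tested. Per cell, the median S100a8 level was 158000 CPM labelled wt (lowest 587, highest 216000) and 159000 CPM labelled cko (lowest 2850, highest 274000), so that the ranges of the libraries overlapped.

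In classical monocytes, S100a8 was present at 995 CPM labelled wt and 1001 CPM labelled cko and S100a9 at 336 and 250 CPM. A small number of cells held most of these UMIs. The tenth of classical monocytes with the most S100a8 held 87.2% of its UMIs labelled wt and 79.9% labelled cko, and the single highest cell held 18.6% and 11.8%. The median monocyte had 139 CPM labelled wt and 227 CPM labelled cko (quartiles 0 and 266, and 108 and 425). The median CD8 T cell, taken here as a cell without S100a8 transcripts of its own, had 105 and 155 CPM (quartiles 0 and 197, and 69.1 and 237), and the median of other T cells was 161 and 213 CPM. The median monocyte was thus above the median CD8 T cell in both libraries, and below that of other T cells labelled wt, and the quartile ranges overlapped. After every cell had been thinned to 3000 UMIs, 41.6% of classical monocytes labelled wt (95% interval 38.4 to 44.8) and 55.3% labelled cko (52.0 to 58.6) held an S100a8 UMI, beside 37.9% and 42.4% of CD8 T cells and 41.3% and 52.6% of other T cells. Without thinning the shares were 69.8% and 79.9% in monocytes and 63.6% and 77.8% in CD8 T cells, whose median depths were 6941 and 8136 UMIs against 7662 and 7372 in monocytes. The share of monocytes labelled wt was within the intervals of CD8 T cells (26.2 to 50.7) and other T cells (30.1 to 53.3). That of monocytes labelled cko was above the interval of CD8 T cells (32.5 to 52.8) and within that of other T cells (40.9 to 64.0).

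The S100a8 and S100a9 UMIs of monocytes did not have the proportion found in granulocytes. In granulocytes there were 1.66 S100a8 UMIs per S100a9 UMI labelled wt (1.61 to 1.72) and 1.65 labelled cko (1.62 to 1.68). In classical monocytes the ratio was 2.96 (2.83 to 3.10) and 4.0 (3.80 to 4.22). Of the classical monocytes with at least 20 S100a8 UMIs, 28 of 39 labelled wt and 49 of 55 labelled cko held fewer than 1 S100a9 UMI per 5 S100a8 UMIs. This was so in 1 of 19 granulocytes labelled wt and in 0 of 54 labelled cko. The limit kept 4.14% and 6.19% of classical monocytes, but 19 of 20 and 54 of 54 granulocytes. Choosing cells by their S100a8 UMIs favours a low proportion of S100a9, more so where few cells are kept. Among all monocytes with at least 20 S100a8 UMIs the median cell held 49 S100a8 and 4 S100a9 UMIs labelled wt, and 46 and 2 labelled cko.

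**Figure D2:**
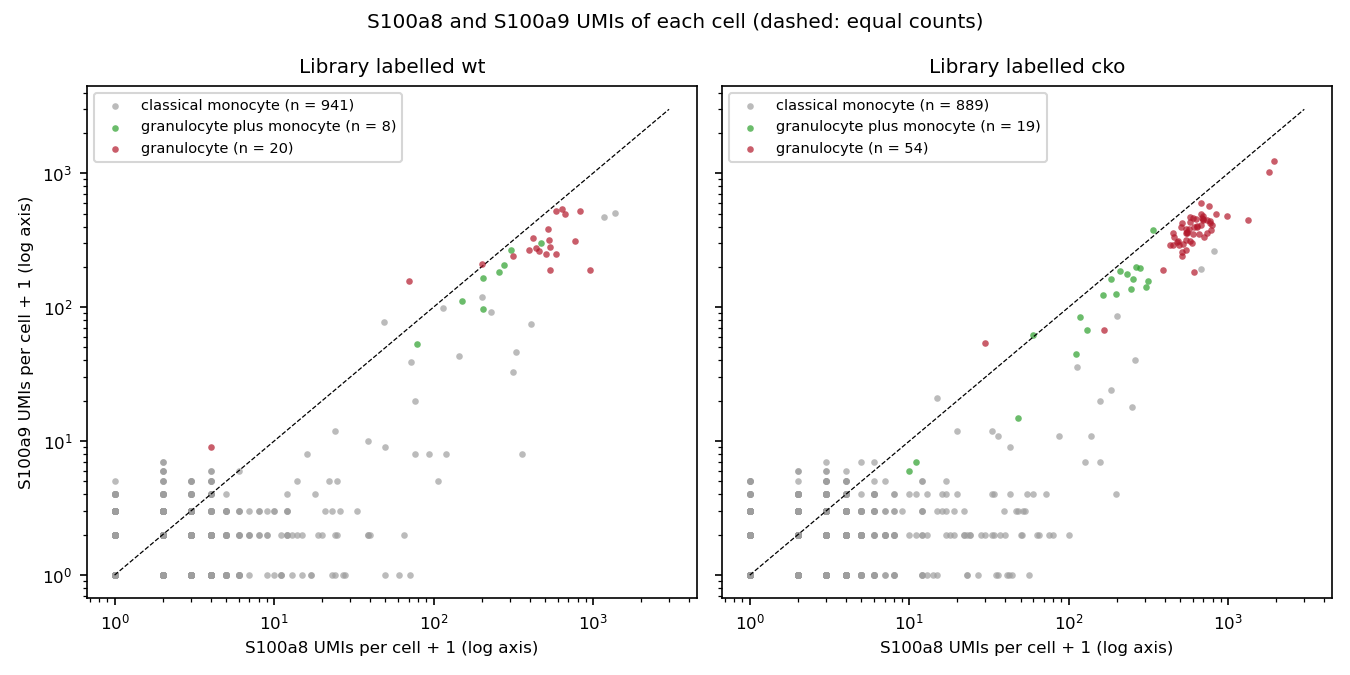
UMIs of S100a8 and S100a9 plus 1, on log axes, in each granulocyte, granulocyte plus monocyte and classical monocyte of the library labelled wt (left) and labelled cko (right). Most granulocytes (red) lie just under the dashed line of equal counts, and most monocytes (grey) with at least 20 S100a8 UMIs lie far below it.

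The ratio differed with the level of Chil3, which encodes a chitinase-like protein of Ly6C-high monocytes and was 1 of the 8 genes of the monocyte gate. Classical monocytes with fewer than 2 UMIs of the granulocyte genes Retnlg, Cxcr2, Ly6g and Stfa2l1 (911 labelled wt and 846 labelled cko) were split by Chil3 UMIs per 10000, with limits chosen after seeing the data. In monocytes without Chil3 (292 and 170 cells) there were 1.48 S100a8 UMIs per S100a9 UMI labelled wt and 1.22 labelled cko, and S100a8 was 170 and 174 CPM. At 10 to 50 Chil3 UMIs per 10000 (284 and 287 cells) the ratio was 3.06 and 3.05. At 50 to 100 (76 and 134 cells) it was 7.15 (6.26 to 8.20) and 7.40 (6.30 to 8.75), and S100a8 was 2999 and 1150 CPM. At 100 or more (12 and 81 cells) it was 5.85 and 5.72, or 3.87 and 9.51 without the single cell with the most S100a8.

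The S100a8 level of the median cell was 127 and 158 CPM without Chil3, 243 and 302 CPM at 50 to 100, and 572 and 611 CPM at 100 or more, so that both libraries had the same order at the top of the scale. S100a9 differed between the libraries over these bins. Labelled wt it was 115 and 108 CPM in the lowest bins and 405, 420 and 474 CPM in the next 3, whereas labelled cko it was between 142 and 161 CPM in the 4 lower bins and 688 CPM in the highest. The intervals treat UMIs as independent, although a single cell held up to 48.4% of the S100a8 UMIs of a bin. That cell lay at 10 to 50 labelled wt, where the ratio was 3.41 without it. In the highest bin labelled cko a single cell held 32.5%. In both bins the ratio rose without the cell, so it held a larger share of the S100a9 than of the S100a8 UMIs. The S100a9 levels of these bins, and so the difference between the libraries, rest in large part on single cells.

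**Figure D3:**
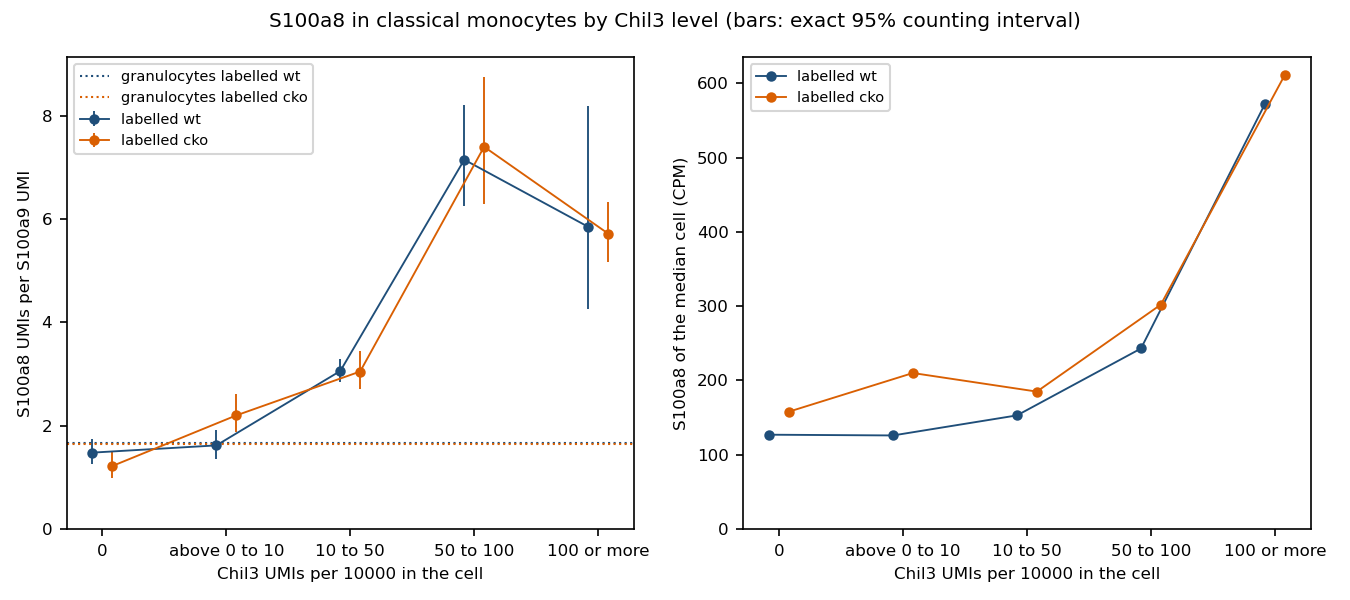
S100a8 UMIs per S100a9 UMI (left, with exact 95% counting intervals and dotted lines for granulocytes) and S100a8 of the median cell in CPM (right) in classical monocytes by Chil3 level, dark blue for the library labelled wt and orange for that labelled cko. The ratio was 1.48 and 1.22 in monocytes without Chil3 and 7.15 and 7.40 at 50 to 100 Chil3 UMIs per 10000.

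S100a4, S100a6, S100a10, S100a11 and S100a13 were also higher in monocytes with at least 50 Chil3 UMIs per 10000 than in those with fewer, in both libraries. S100a6 was 2518 and 2718 CPM in monocytes without Chil3 and 4653 and 4055 CPM at 100 or more. S100a4 was 975 and 952 CPM without Chil3 and 1647 and 1296 CPM at 100 or more. S100a10 went from 1034 and 1174 CPM to 1637 and 1624 CPM, S100a11 from 3011 and 2956 CPM to 4076 and 4007 CPM, and S100a13 from 251 and 246 CPM to 340 and 351 CPM.

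Outside both granulocyte classes and classical monocytes, S100a8 and S100a9 were at a low level. In these 10 classes S100a8 was between 0.0669% and 0.224% of its granulocyte level labelled wt and between 0.0862% and 0.232% labelled cko. S100a9 was between 0.0979% and 0.255%, and between 0.117% and 0.185%. Retnlg, a granulocyte gene used in the gate, was at 0% to 0.0779% and 0.0393% to 0.114%. In droplet data free RNA adds UMIs to cells that do not express a gene, and the values of T and NK cells are read as that background. The S100a8 level in NK cells was 83.2 CPM labelled wt and 159 CPM labelled cko, and in CD8 T cells 148 and 166 CPM. C1q macrophages had 170 and 233 CPM, with 1.14 and 1.29 S100a8 UMIs per S100a9 UMI, beside 1.17 and 1.16 in CD8 T cells, 1.04 and 1.52 in other T cells and 0.717 and 1.12 in NK cells. Nonclassical monocytes had 193 and 374 CPM of S100a8, with a ratio of 1.27 (1.07 to 1.51) labelled wt and 2.14 (1.85 to 2.48) labelled cko, and 26.8% of the UMIs labelled cko were in 1 cell. For comparison the macrophage genes C1qa, C1qb and C1qc were at 1.77% and 1.47% of their C1q macrophage level in CD8 T cells.

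S100a4, S100a6, S100a10 and S100a11 marked monocytes against macrophages. In classical monocytes S100a11 was 3336 and 3410 CPM (labelled wt and labelled cko) and in C1q macrophages 1090 and 976 CPM. S100a6 was 2869 and 3128 CPM against 1070 and 987 CPM. S100a10 was 1188 and 1311 CPM against 445 and 394 CPM. S100a4 differed most among the 4, with 1085 and 1093 CPM against 263 and 209 CPM, a ratio of 4.12 and 5.24. No library value of one class overlapped the values of the other for these genes.

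With S100a8, 5 of the 8 members were at least 2-fold higher in classical monocytes than in C1q macrophages in both libraries, beside 3.26% of the 7741 genes with at least 100 UMIs, and 0 were lower, beside 5.41%. The median log2 ratio was 1.56 over the members and -0.07 over all genes tested. The S100a8 call rests on few cells, since the median monocyte had 139 and 227 CPM and the median C1q macrophage 116 and 159 CPM. S100a9 passed the limit labelled wt alone (2.26-fold and 1.38-fold). S100a13 was 1.56-fold and 1.71-fold higher and S100a1 was 1.32-fold and 1.47-fold higher. The count of 5 was within 1.5 times of this value under every alternative gate, depth limit and summary run.

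Between these classes the levels were graded. Monocytes and macrophages were ordered by C1q UMIs per 10000 in 9 bins of 47 to 425 cells. S100a4 was 1120 CPM labelled wt and 1112 CPM labelled cko under 1 C1q UMI, 934 and 869 CPM at 10 to 20, 458 and 402 CPM at 50 to 100, and 107 and 83.8 CPM at 200 or more. S100a11 went from 3456 and 3593 CPM to 2801 and 2487 CPM at 10 to 20, 1800 and 1735 CPM at 50 to 100, and 513 and 490 CPM at 200 or more. S100a6 ended at 524 and 528 CPM and S100a10 at 248 and 275 CPM. S100a13 changed from 285 and 305 CPM to 173 and 156 CPM, and S100a1 was between 45.7 and 84.8 CPM in all bins. The bins of high C1q were deeper, with medians of 14725 and 13554 UMIs against 7397 and 7082 in the lowest, and the part of depth in these levels was not tested. The gates cut this range at 10 and 50, and 349 of 3967 cells of the monocyte and macrophage gates lay within 1.5-fold of the upper limit.

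**Figure D4:**
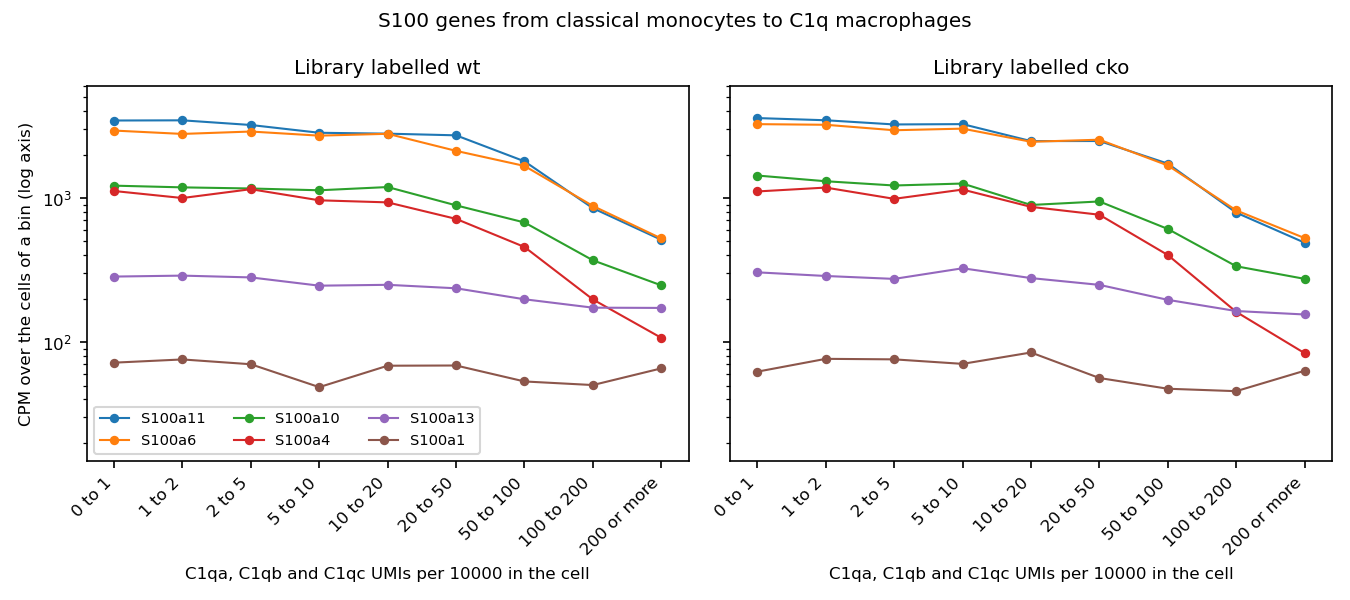
CPM of 6 S100 genes (log axis) over classical monocytes, C1q-intermediate cells and C1q macrophages binned by C1q UMIs per 10000, in the library labelled wt (left) and labelled cko (right). S100a4, with 1120 and 1112 CPM in the first bin and 107 and 83.8 CPM in the last, had the steepest line, and S100a1 stayed between 45.7 and 84.8 CPM.

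Nonclassical monocytes, gated by Ace, Treml4, Adgre4, Spn and Eno3 (214 and 215 cells), had the highest S100a4 by the mean of both libraries, 1276 and 1154 CPM, a range that overlapped that of other DCs (1256 and 968 CPM). Their S100a10 was 588 and 577 CPM, below the 1188 and 1311 CPM of classical monocytes without overlap. S100a11 was 2060 and 2062 CPM and S100a6 was 2047 and 2386 CPM. Both were lower than in classical monocytes in each library.

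Among DCs the members were distributed unevenly. S100a11 was 3551 and 3792 CPM in Xcr1/Clec9a DCs, the cross-presenting type (19 and 14 cells), which ranked after both granulocyte classes by the mean of both libraries. In the same cells S100a4 was 110 and 35.9 CPM and S100a6 was 477 and 485 CPM, whereas other DCs (50 and 67 cells) had 1256 and 968 CPM of S100a4 and 2486 and 2446 CPM of S100a6. Ccr7/Fscn1 DCs (13 and 27 cells) had 1067 and 1921 CPM of S100a11. Plasmacytoid DCs (18 and 20 cells) had the lowest summed share of the 8 members, 0.147% and 0.238% of UMIs, with 3 and 10 UMIs of S100a4 in all. In C1q macrophages this share was 0.342% and 0.320% and in classical monocytes 1.02% and 1.06%.

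Among lymphoid cells, S100a10 in other T cells and NK cells and S100a13 in all 3 classes overlapped or exceeded the range of classical monocytes, whereas S100a10 in CD8 T cells lay below it in both libraries. S100a10 was 1402 and 1311 CPM in other T cells (75 and 78 cells), 1288 and 1355 CPM in NK cells (51 and 48 cells) and 914 and 1117 CPM in CD8 T cells (66 and 99 cells). The ranges of other T cells, NK cells and classical monocytes overlapped. S100a13 was 355 and 319 CPM in other T cells, 320 and 279 CPM in NK cells and 280 and 309 CPM in CD8 T cells, beside 282 and 292 CPM in classical monocytes. S100a4 was 763 and 882 CPM in CD8 T cells and 434 and 514 CPM in other T cells, without overlap. By the mean of both libraries S100a1 was lowest in plasmacytoid DCs and CD8 T cells, with 4 and 8 UMIs in CD8 T cells (5.81 and 8.43 CPM), against 70.5 and 71.8 CPM in classical monocytes.

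Against CD8 T cells, 3 of 8 members were at least 2-fold higher in classical monocytes of both libraries (S100a1, S100a8 and S100a11), beside 19.6% of all 5939 genes tested, and 0 were lower, beside 10.3%. S100a1 was 12.1-fold and 8.52-fold higher and S100a11 was 3.5-fold and 3.71-fold higher. S100a13 differed least, with ratios of 1.01 and 0.944.

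Over the 26 class-by-library values of log2(CPM + 1), S100a8 and S100a9 were most alike of all member pairs (Pearson's r 0.98), followed by S100a10 and S100a13 (0.83), which lie in different parts of the chromosome. S100a4 and S100a10 had r 0.69. The adjacent pair S100a1 and S100a13 had r 0.50 and S100a4 and S100a6 had r 0.57. These correlations are descriptions, since classes share a library and differ in depth. Among 9119 other genes with at least 200 UMIs, those most like S100a8 were Prok2 (0.96), Retnlg (0.957) and Stfa2l1 (0.955), of which the last 2 were gate genes. S100a9 was most like Prok2 (0.974), Ngp (0.962) and Stfa2l1 (0.961). S100a6 was most like Trem1 (0.904), Slc16a3 and Fosl2. S100a11 was most like Ifitm1 (0.889), Mapk13 and Ifitm6, and S100a4 like Trps1 (0.85), Ms4a6b and Fam46a. S100a10 and S100a13 both had Tpt1 among their 3 (0.859 and 0.866), beside Trim16 and Tstd3 for S100a10 and Bola2 and Wls for S100a13. S100a1 was most like Ugdh (0.832), Parp12 and Fam21.

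Of 14 genes that encode known partners or cargo of S100 proteins, 10 were tested between classical monocytes and C1q macrophages, and 3 were at least 2-fold higher in monocytes of both libraries, beside 3.26% of all genes tested, and 0 lower, beside 5.41%. Their median log2 ratio was 0.26. Anxa2, the partner of S100A10, was 1159 and 1410 CPM in classical monocytes and 437 and 468 CPM in C1q macrophages. Anxa1, the partner of S100A11, was 456 and 588 CPM against 168 and 165 CPM. Ahnak, which encodes a large protein bound by the S100A10 and annexin A2 complex, was 160 and 152 CPM against 72.4 and 60.0 CPM. Anxa5 and Anxa6, other annexins, were 580 and 576 CPM and 176 and 176 CPM in monocytes against 686 and 675 CPM and 254 and 243 CPM in macrophages.

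Between granulocytes and classical monocytes, 3 of 10 partner genes were higher (Anxa1, Anxa11 and Plaur), beside 4.58% of all genes tested, and 2 lower (Anxa5 and Anxa6), beside 26.9%. Anxa1 was 1569 and 1936 CPM in granulocytes. In granulocytes Anxa2 was 1431 and 1886 CPM although S100a10 was 254 and 110 CPM. Fgf1, a cargo of S100A13, had 1 UMI in all cells, and Il1a had 84.

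Of 6 receptor genes, 4 were tested in each contrast. None passed 2-fold between classical monocytes and C1q macrophages, beside 3.26% of all genes higher and 5.41% lower. Between granulocytes and classical monocytes 1 was higher and 1 lower, beside 4.58% and 26.9%. Cd33, a proposed receptor of S100A9, was 473 and 363 CPM in granulocytes against 35.5 and 49.9 CPM in classical monocytes, and Ly96, the TLR4 coreceptor MD-2, was lower (11.5 and 36.7 against 86.4 and 87.4 CPM). Ager, which encodes RAGE, had 26 UMIs in all cells. Of 6 regulator genes measured, 4 were tested against the same shares of all genes, and 1 was higher in each contrast and 0 lower. This gene, Cebpb, a transcription factor of granulocytes and monocytes, was 3035 and 4841 CPM in granulocytes, 798 and 1010 CPM in classical monocytes and 362 and 467 CPM in C1q macrophages. Spi1, which encodes PU.1, was between 655 and 1027 CPM in these 3 classes. Cebpe and Gfi1, expressed in granulocyte precursors, had 0 UMIs in granulocytes of both libraries. Of 6 other calcium-binding EF-hand genes 0 passed 2-fold between monocytes and macrophages, beside the same 3.26% and 5.41%, and 1, Lcp1, was higher in granulocytes, beside 4.58% (1362 and 1711 against 639 and 646 CPM). The S100 genes outside the 8 members were nearly absent, with 90 UMIs of S100a3, 63 of S100a16 and 0 of S100g and S100z over all cells.

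Members were called different between the libraries within a class when the log2 ratio (cko over wt) was at least 0.32 in size. Over whole libraries, S100a8 was 974 CPM labelled wt and 1945 CPM labelled cko and S100a9 was 546 and 1118 CPM. Granulocytes were 0.834% of cells labelled wt (0.510 to 1.29) and 2.04% of cells labelled cko (1.54 to 2.65) and held 42.9% and 68.7% of all S100a8 UMIs. Granulocytes are small cells that can fall below the UMI limit set before deposit, and the share of cells was not compared by a test. Genotype, pool and library cannot be told apart in this design.

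In classical monocytes, the class with the most UMIs of the 8 genes together, 7 of 8 members were below this limit. S100a4 had a log2 ratio of 0.01 (-0.03 to 0.06), S100a11 of 0.03 (0.01 to 0.06), S100a6 of 0.12 (0.10 to 0.15) and S100a10 of 0.14 (0.10 to 0.18). S100a9 alone was lower, with a log2 ratio of -0.42 (-0.51 to -0.34). Thus 1 member was called lower, beside 5.46% of the 7376 genes tested, and 0 were higher, beside 6.58%. The S100a9 ratio was -0.18 without the 30 and 43 monocytes that held 2 or more UMIs of Retnlg, Cxcr2, Ly6g and Stfa2l1, -0.11 with stricter gates and 0.00 with Leiden clusters in place of gates.

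In granulocytes 3 of the 4 members with at least 100 UMIs were called higher in the library labelled cko, beside 21.2% of the 364 genes tested, and 0 were lower, beside 34.9%. The log2 ratio was 0.49 for S100a8, 0.50 for S100a9 and 0.72 for S100a6 (0.55 to 0.88), and 0.15 for S100a11. TMM scaling, which adjusts for composition, moved all granulocyte ratios up by 0.54. Without the 4 cells rich in Cd74 the ratio was 0.05 for S100a8, 0.12 for S100a9 and 0.37 for S100a6, which left 1 member above the limit. S100a4 and S100a10 had too few UMIs for this count (35 and 24, and 22 and 24), and in the library labelled wt a single cell held 62.9% and 72.7% of them.

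In C1q macrophages S100a4 had a log2 ratio of -0.34 (-0.42 to -0.25), and was the 1 member called lower, beside 4.1% of 8284 genes. Its ratio was -0.25 with stricter gates and -0.31 without doublet removal, which ended this call. S100a8 was the 1 member higher (log2 ratio 0.46), beside 9.84%, and its ratio was 0.29 with stricter gates and 0.21 with Leiden clusters, below the limit. In nonclassical monocytes S100a8 was the 1 member higher (0.95, or 0.62 without the top cell of each library), beside 11.5% of 3580 genes, and 0 were lower, beside 5.67%. In CD8 T cells, 0 of 7 members with at least 100 UMIs were higher, beside 12.9% of 2255 genes, and 0 were lower, beside 11.7%. By any amount, S100a8 was higher in the library labelled cko in 10 of the 11 classes outside the granulocyte gates and S100a9 in 7 of 11. The other members were higher in between 3 (S100a10) and 8 (S100a13) of 11, and the share over all genes was not counted. In classical monocytes the S100a8 values were 995 and 1001 CPM (log2 ratio 0.01, -0.04 to 0.06). The 10 classes include NK cells (83.2 and 159 CPM), other T cells (161 and 232 CPM) and CD8 T cells (148 and 166 CPM, with a log2 ratio interval of -0.21 to 0.53). S100a8 in these lymphoid classes is read here as free RNA, whose part in these ratios was not tested.

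In NK cells 2 of the 5 members with at least 100 UMIs were called lower (S100a6 and S100a4), beside 10.3% of 1053 genes, and 0 were higher, beside 12.2%. S100a6 was 2039 CPM labelled wt and 1163 CPM labelled cko, a log2 ratio of -0.81 (-0.98 to -0.64). The median NK cell had 1880 CPM (quartiles 508 and 3070) and 1090 CPM (298 and 1900), so that the cells of both libraries overlapped widely. S100a4 in NK cells was 396 and 276 CPM (157 and 101 UMIs, log2 ratio -0.52, -0.89 to -0.15), and its ratio was -0.30 with Leiden clusters and -0.28 without doublet removal, below the limit. In CD8 T cells S100a6 was 1579 and 1411 CPM and in other T cells 1384 and 1428 CPM.

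**Figure D5:**
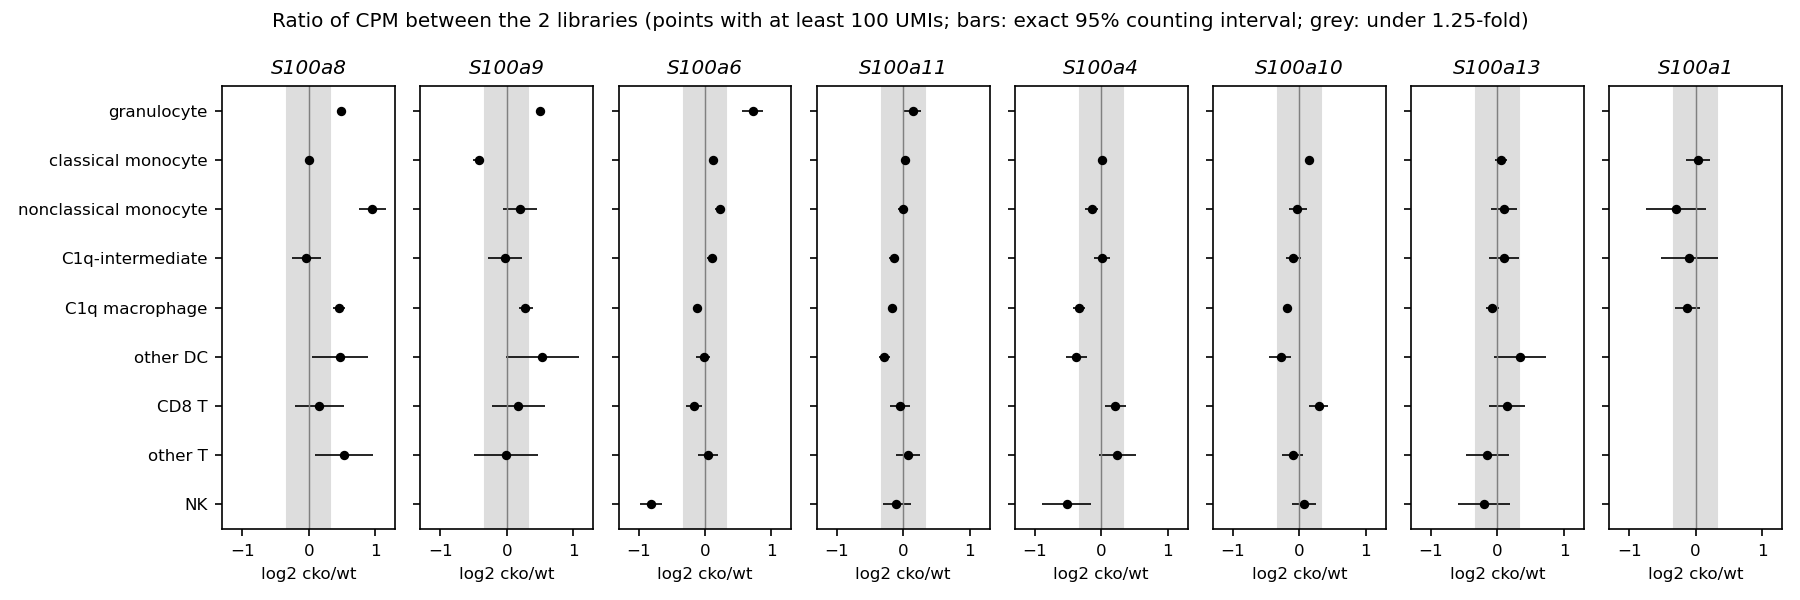
Log2 ratio of CPM, library labelled cko over library labelled wt, for each S100 gene in 9 classes, with exact 95% counting intervals; the grey band marks log2 ratios under 0.32 in size, and points need at least 100 UMIs over both libraries. The 6 members other than S100a8 and S100a9 lay inside the band in classical and nonclassical monocytes, and S100a6 in granulocytes (0.72) and NK cells (-0.81) lay outside it on opposite sides.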

How the data were processed

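Cells were sorted by FACS and loaded on the 10x Genomics 3′ chemistry, version 2. The authors deposited raw UMI counts per gene and cell for cells already called, and the submitters' processing notes name Cell Ranger, Seurat and the mm10 build, without versions. The shallowest cells held 3184 and 3187 UMIs. The growth protocol in the labels names a macrophage gate, whereas the design text names CD45 alone.

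A minimum of 200 genes and a maximum of 10% mitochondrial UMIs per cell removed 4 and 14 cells. Scrublet called 7 of 5149 cells doublets, too few to be credible, and the 48 and 58 cells with the highest scores were removed, at 0.8% per 1000 cells. Gates required at least 10 UMIs of Retnlg, Cxcr2, Ly6g, Stfa2l1 and Csf3r (granulocytes, with under 50 UMIs of monocyte and macrophage markers per 10000), 3 of Cd3e, Cd3d and Cd3g (T cells, CD8 with 3 of Cd8a and Cd8b1) or NK genes, 3 of DC genes, 5 of plasmacytoid DC genes, or 50 C1q UMIs per 10000 (macrophages). Classical monocytes had under 10 C1q UMIs and at least 20 monocyte marker UMIs per 10000, and C1q-intermediate cells lay between 10 and 50. Cells of more than 1 lineage (43 and 54) or of none (103 and 116) were left out.

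UMIs were summed per class and library and given as CPM. Intervals are exact 95% Poisson, conditional binomial (ratios) or Clopper-Pearson (shares) intervals and cover counting error only. Members and other genes were counted past 2-fold between classes and a log2 ratio of 0.32 between libraries, for genes with at least 100 UMIs; a class at 0 was set to 3 counts. The members, lists and markers were chosen with earlier results of these data known. The named genes were the 8 members, the 3 genes most correlated with each, and fixed lists of partners, receptors, regulators and calcium sensors (Cebpd was not analysed here). The ratio and its interval were tested on simulated counts. These were independent Poisson counts, so that UMIs concentrated in single cells were not covered. Tools were Python 3.11.15, scanpy 1.11.5, numpy 2.4.6, scipy 1.17.1, pandas 2.3.3, leidenalg 0.10.2, matplotlib 3.10.9 and edgeR 4.0.16 for TMM factors alone. Positions were taken from GENCODE vM21 and promoters from RefSeq.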

Additional observations from a re-analysis of the deposited data

Results flagged for a closer look

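S100a6 moved in opposite directions between the libraries in 2 classes, with a log2 ratio (cko over wt) of 0.72 in granulocytes and -0.81 in NK cells. S100a9 had a ratio of 0.50 in granulocytes and -0.42 in classical monocytes. Each of these 4 intervals lay on 1 side of 0, but with 1 library per genotype the difference between the classes was not tested. The granulocyte values rest on 20 and 54 cells, and without the 3 and 1 cells rich in Cd74 they were 0.37 for S100a6 and 0.12 for S100a9. The S100a9 value of classical monocytes was -0.18 without cells with granulocyte marker UMIs, -0.11 with stricter gates and 0.00 with Leiden clusters. The NK values rest on 51 and 48 cells.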

How the results depend on the processing

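Between classes, 43 of 44 alternative counts of members stayed within 1.5 times of the reported count. The exception was the count of members lower in granulocytes than in classical monocytes, 0 with cells of at least 5000 UMIs. Of the levels of members in granulocytes, classical monocytes and C1q macrophages, 123 of 272 moved beyond their counting interval, among them 35 with stricter gates, 30 with Leiden clusters and 27 with the mean over cells. Between libraries 78 of 112 counts stayed within 1.5 times, 69 of 332 log2 ratios moved beyond their interval, and no log2 ratio of at least 0.32 in size changed its sign among them. The count of members higher in cko in granulocytes was 1, in place of 3, with stricter gates, Leiden clusters, the mean over cells and without cells rich in Cd74 (added after seeing the data), and the count lower was 2, in place of 0, over genes with at least 20 UMIs. In classical monocytes the count lower was 0, in place of 1, with stricter gates, Leiden clusters and without cells with granulocyte marker UMIs (also added). In nonclassical monocytes the count higher was 3 with stricter gates and 2 with Leiden clusters or without the top cell, in place of 1, and the count lower was 1, in place of 0, with stricter gates, Leiden clusters, the mean over cells, TMM scaling, median-of-ratios scaling and without the top cell. In C1q macrophages the count higher was 0 with stricter gates and Leiden clusters and 2 without doublet removal, with the mean over cells or without the top cell, in place of 1, and the count lower was 0, in place of 1, with stricter gates and without doublet removal. In CD8 T cells the count higher was 1 without doublet removal or with at least 5000 UMIs and 2 without the top cell, and the count lower was 1 without doublet removal, all in place of 0. In NK cells the count higher was 1, in place of 0, with stricter gates, Leiden clusters, without doublet removal and over genes with at least 20 UMIs, and the count lower was 1, in place of 2, with Leiden clusters and without doublet removal. The cause of these changes was not tested. TMM and median-of-ratios scaling shifted granulocyte ratios by 0.54 and 0.35, and those of the other classes by at most 0.08. The log2 ratio (cko over wt) of S100a8 in granulocytes was 4.10 with cells of at least 5000 UMIs, which leaves few of them. Shares of cells with an S100a8 UMI moved beyond their interval in 12 of 12 alternatives, which thin to 1000 UMIs or not at all. No paired analysis was possible because each genotype has 1 library.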

Other observations

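Groups of cells that were not defined by the gates of the 13 classes had S100 patterns of their own. A cluster of 10 cells labelled wt and 4 labelled cko with 11420 and 11470 CPM of Ctsk, the protease cathepsin K of osteoclasts, and 15930 and 13310 CPM of Acp5 is described first. S100a4 was 2521 and 2557 CPM, above all 13 gated classes in both libraries, and S100a10 was 1572 and 1616 CPM. S100a11 was 559 and 1013 CPM, and S100a6 was 920 and 1023 CPM. The cluster was picked out after its values had been seen, and its cells were deep, with medians of 29034 and 22531 UMIs. Over all cells with at least 20 UMIs of Ctsk, Acp5 and Atp6v0d2 (53 and 94 cells) S100a4 was 578 and 225 CPM.

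Cells with at least 5 UMIs of the epithelial genes Krt8, Krt18 and Epcam (5 labelled wt and 17 labelled cko, with medians of 26300 and 47966 UMIs) had 11090 and 8343 CPM of S100a6, above the 4374 and 7181 CPM of granulocytes. Their S100a4 was 1272 and 483 CPM and their S100a8 was 156 and 191 CPM, near the level of T cells. Without S100a8 and S100a9 in the granulocyte total, the S100a6 of granulocytes was 5362 and 9701 CPM. The order of S100a6 was then reversed in the library labelled cko (9701 CPM in granulocytes against 8343 CPM).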
